A study of Danio rerio with 6 samples.

Results

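The transcripts described here were those partly reduced without p63 in whole zebrafish embryos. They were chosen from the counts themselves. A transcript was a member when its lowest value in WT embryos was at least 1 CPM (a count divided by the total of its sample and scaled to a total of 1000000), and when that value was at least 2 times but less than 4 times its highest value in tp63 mutants. Of the 58549 transcripts in the count files, 95 met this rule. RNA-seq was performed on 3 tp63 mutant and 3 WT samples, each a pool of embryos at 36 hpf (hours post-fertilization). The mutants were homozygous (tp63 -/-) for a small CRISPR/Cas9 deletion that creates a premature stop codon in all isoforms. The study names the AB and Tübingen strains as the origin of its embryos. It does not state whether the WT pools were siblings of the mutants. The study reports standard conditions for the fish and describes no treatment of the embryos of either genotype. A single mutant allele was used, mutants at this stage have no pectoral fin buds and a smaller fin fold, and all tissues of the embryo contribute to each sample. In such samples, fewer cells of a type and less RNA per cell cannot be told apart.

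p63 is a transcription factor of the p53 family, encoded by tp63, that directs the formation of the epidermis. In the zebrafish embryo the skin consists of an outer periderm and a basal layer of keratinocytes, and p63 marks the basal layer. The same layer builds the fin folds and, at the margin of the limb bud, the apical ectodermal ridge, whose signals let the pectoral fin grow.

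The files identify transcripts by Ensembl transcript number only. None of these numbers could be paired with a gene, with 0 of 58549 matched in the reference tables, so neither gene functions nor sequences are given for the members, tp63 was not analysed here, and the identity of the tissue was not checked against marker genes. Sequence length was likewise not at hand, so a CPM value is not per length. It ranks transcripts by how many counts lie behind them, not by abundance. Total counts per sample ran from 77133790 to 81976521. No library was a copy of another, since their counts differed by far more than sampling noise (chi-square over degrees of freedom 26.8 for the closest pair). The study calls the samples biological replicates, and the p-values below set the difference between genotypes against the spread between these samples.

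The reduction of the members was moderate and spanned a wide range of counts. In mutants the 95 transcripts together summed to 1015 CPM in replicate 1, 884 CPM in replicate 2 and 1012 CPM in replicate 3. The sums in WT were 3227, 3489 and 3029 CPM in replicates 1, 2 and 3. The rule itself makes the lowest WT sum at least 2 times the highest mutant sum. The sums within a genotype lay close together. The mean was 970.5 ± 74.7 CPM in mutants and 3248 ± 231 CPM in WT (SD, n = 3 each), and the WT mean was 3.35 times the mutant mean. Without the most counted member the sums averaged 820.4 ± 72.1 CPM in mutants and 2701 ± 196 CPM in WT (SD, n = 3 each), a ratio of 3.29. The median member had 2.44, 2.45 and 2.61 CPM in mutant replicates 1, 2 and 3, against 8.56, 8.83 and 8.70 CPM in WT replicates 1, 2 and 3. All 95 had lower values in every mutant sample than in any WT sample because the rule requires it. Over the 27118 transcripts with at least 1 CPM in every WT sample, 5.5% were lower in the mutants without overlap.

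**Figure D1:**
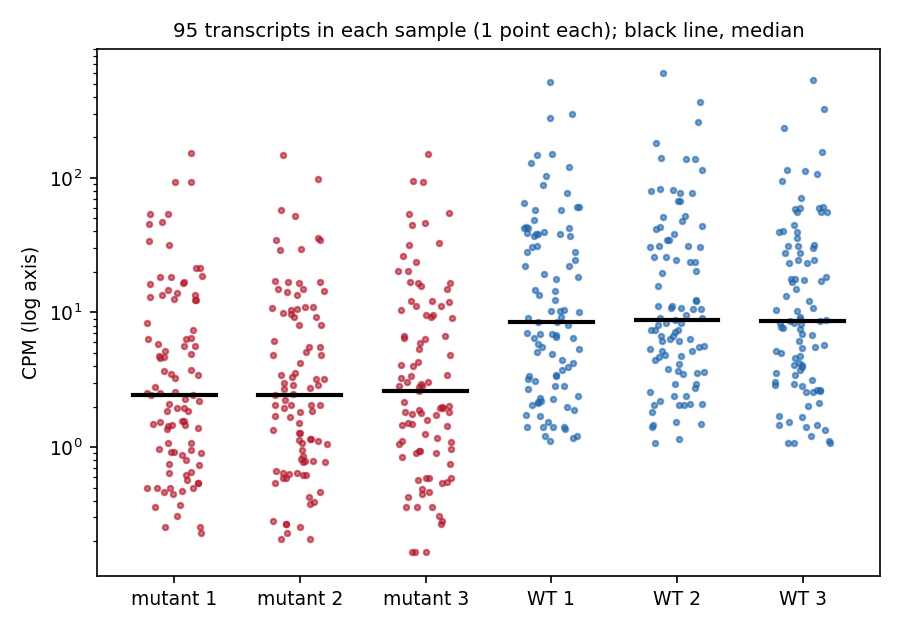
CPM on a log axis of each of the 95 transcripts (1 point each) in the 3 tp63 mutant samples and the 3 WT samples, with the median as a black line. The medians lie between 2.44 and 2.61 CPM in mutants and between 8.56 and 8.83 CPM in WT, and the 2 clouds of points overlap because the transcripts differ from one another by more than the genotypes do.

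Measured by means, the mutants retained 29.3% of the WT level for the median member, with a range from 6.38% to 42.5%. The ratio of the WT mean to the mutant mean was therefore 3.42 for the median member, and it ran from 2.35 to 15.7. It was under 3 for 24 members, from 3 to under 4 for 43, from 4 to under 5 for 13 and 5 or more for the other 15, since the rule limits the closest samples and not the means. The ratio that the rule does use, of the lowest WT value to the highest mutant value, had a median of 2.40. It lay below 2.5 for 54 of the 95 transcripts, from 2.5 to under 3 for 19, from 3 to under 3.5 for 15 and at 3.5 or more for 7. The members thus crowded towards the lower limit.

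The limits cut through a continuous range of values. Just inside the lower limit were 2 transcripts with the same counts in all 6 samples and a ratio of 2.01, at 12.3, 9.30 and 11.2 CPM in mutants against 27.9, 30.7 and 24.7 CPM in WT. The nearest transcript outside it had a ratio of 1.98, with 4.96, 4.77 and 4.13 CPM in mutants against 9.81, 31.9 and 14.1 CPM in WT. At the upper limit, the last member had a ratio of 3.99. The first transcript beyond it had 0.231, 0.317 and 0.244 CPM in mutants against 1.27, 1.37 and 1.54 CPM in WT. As for the floor of 1 CPM, the lowest WT value of any member was 1.08 CPM, the next transcript below it had 0.998 CPM, and 192 transcripts met the ratio but not the floor.

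**Figure D2:**
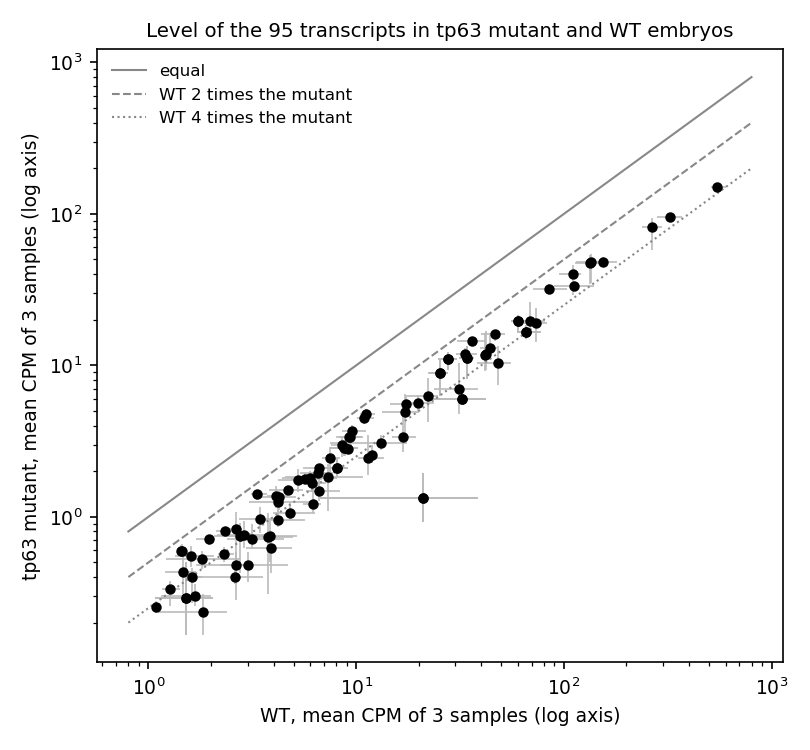
Mean CPM of each of the 95 transcripts in tp63 mutants (vertical) against WT (horizontal), both on log axes. Bars span the lowest to the highest of 3 samples, and the lines mark equal levels and WT levels of 2 and 4 times the mutant. Most points lie between the lines of 2 and 4 times over the whole range of counts, from 1.09 to 547 CPM in WT, and the point farthest below them, at 21.0 CPM in WT with a long horizontal bar, is 2 transcripts with identical counts.

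Transcript ENSDART00000129044.3 had the most counts. It had 154, 147 and 149 CPM in mutant replicates 1, 2 and 3, against 512, 599.8 and 529.9 CPM in WT replicates 1, 2 and 3. On the CPM scale neither genotype contained a sample that stood apart, and the mutant samples were especially close to each other. The mean was 150.1 ± 3.4 CPM in mutants and 547 ± 46.4 CPM in WT (SD, n = 3 each). It made up 15.5% of the summed CPM of the members in mutants and 16.8% in WT. In the fit across all transcripts its log2 fold change, mutant over WT, was -2.03 (standard error 0.21).

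The next 9 members by WT count differed in how their replicates lay. The second had 93.4, 98.1 and 93.1 CPM in mutants against 280.3, 369 and 323 CPM in WT. The fourth had 46.7, 51.9 and 46.2 CPM in mutants against 128, 181 and 156 CPM in WT. The seventh had 31.7, 35.8 and 32.7 CPM in mutants against 89.2, 139 and 107 CPM in WT. In these 3, on the CPM scale, the mutant samples were nearly level and replicate 2 was slightly the highest of the mutants. In WT replicate 2 was also the highest and replicate 1 the lowest.

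In the third, the fifth, the sixth and the eighth the profile was different. The third had 93.2, 58.2 and 94.1 CPM in mutants against 298, 259 and 236 CPM in WT. The fifth had 54.0, 34.8 and 54.6 CPM in mutants against 149.8, 139.9 and 115 CPM in WT. The sixth had nearly the same values as the fifth in every sample, and the eighth had 45.8, 29.0 and 44.8 CPM in mutants against 121, 114 and 95.2 CPM in WT. Here mutant replicate 2 fell clearly below the other mutants, while in WT replicate 1 was the highest and replicate 3 the lowest. The ninth had 34.2, 29.6 and 31.9 CPM in mutants against 104, 79.8 and 71.3 CPM in WT. The tenth had 18.7, 14.2 and 23.9 CPM in mutants against 76.8, 83.2 and 60.5 CPM in WT. In both of these mutant replicate 2 was the lowest mutant by less than 1.5 times, and the highest WT sample was replicate 1 for the ninth and replicate 2 for the tenth. As the rule requires, none of these 10 overlapped between the genotypes, and the ratios of their means were within a narrow band, from 2.66 to 3.89. Together they made up 61.2% of the summed CPM of the members in mutants and 59.7% in WT.

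**Figure D3:**
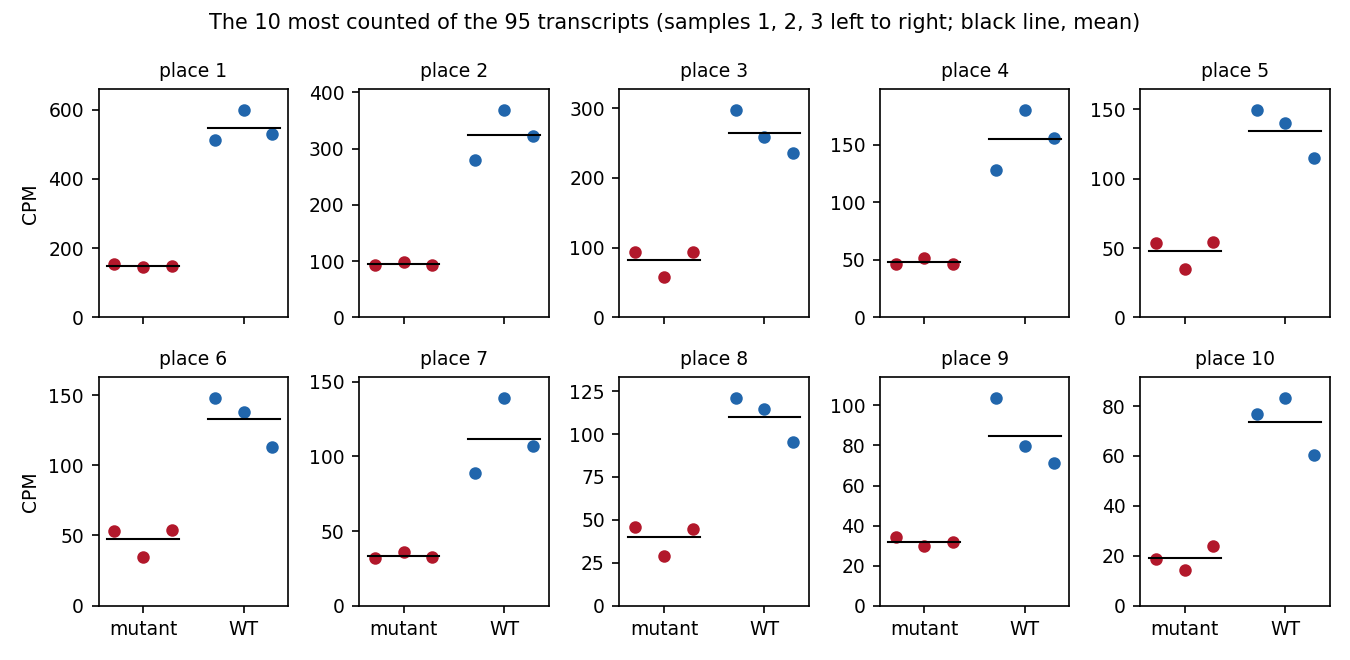
CPM in each sample for the 10 members with the highest mean WT CPM, in order of that mean. Mutant samples are on the left and WT samples on the right of each panel, replicates 1, 2 and 3 run from left to right, the black line is the mean of 3 samples, and each axis starts at 0. Places 1, 2, 4 and 7 have level mutant samples, places 3, 5, 6 and 8 have mutant replicate 2 below the other mutants by more than 1.5 times, and in places 9 and 10 it is lowest by less.

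Most members had far fewer counts. The mean in WT was below 5 CPM for 33 members, from 5 to under 10 CPM for 19, from 10 to under 50 CPM for 28, from 50 to under 100 CPM for 7 and 100 CPM or more for 8. At the low end was ENSDART00000144036.1, which also had the largest ratio of lowest WT to highest mutant value. It had 0.231, 0.256 and 0.269 CPM in mutants, from 18, 21 and 21 counts, against 1.12, 1.08 and 1.08 CPM in WT, from 87, 87 and 83 counts. The WT samples were almost equal, and the mutant samples differed by less than their counting error. Its log2 fold change was -2.29 (standard error 0.32). The smallest count of any member was 13 in a mutant sample and 83 in a WT sample. Within the limits that the rule sets at any level, the median ratio of the WT mean to the mutant mean was 3.50 over the 52 members below 10 CPM in WT and 3.35 over the 43 at 10 CPM or more.

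On the CPM scale, whose values the rule also limits, replicates of a genotype agreed to a similar degree in mutants and in WT. The SD of log2 CPM over the 3 samples had a median over the members of 0.23 in mutants and 0.22 in WT, and it was larger in WT for 48 of the 95. The spread exceeded that of counting alone for 80 members in mutants and for 91 in WT. It was above 0.5 for 12 members in mutants and for 10 in WT. The most variable in WT were a pair of transcripts with identical counts. They had 0.924, 1.15 and 1.95 CPM in mutants against 38.5, 6.70 and 17.9 CPM in WT. Every WT sample was above every mutant sample, but WT replicate 1 was several times higher than WT replicate 2, and the ratio of the means, 15.7, rests on that spread. Their log2 fold change was -4.24 with a standard error of 0.67, the largest standard error of any member. The most variable in mutants had 1.06, 0.817 and 0.308 CPM in mutants against 2.86, 3.50 and 4.97 CPM in WT, with mutant replicate 3 low.

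Mutant replicate 2 took a different place among the members than among all transcripts. The rule itself bears on this, since it bounds the highest mutant value from above and from below. It can thus leave out some transcripts raised in 1 mutant sample and take in others. How much of the difference follows from the rule was not tested. Of the 95 members, 43 (45.3%) had their lowest mutant value in replicate 2 and 24 (25.3%) their highest. Over the 27118 transcripts with at least 1 CPM in every WT sample, these shares were 29.2% and 55.9%. The median log2 deviation of mutant replicate 2 from the mutant mean was -0.10 over the members and 0.11 over all these transcripts. In WT replicate 2 both medians were positive, at 0.16 over the members and 0.14 over all. The ratio of WT to mutant among samples with the same number had a median of 2.98 for number 1, 4.22 for number 2 and 3.11 for number 3. It reached 4 for 24, 53 and 27 of the 95 members in that order of numbers. In 10 members (10.5%) mutant replicate 2 was at least 1.5 times below both other mutants, against 1.98% of all these transcripts. It was at least 1.5 times above both for 1.05% of the members and 13.9% of all. The medians of the 10 members in mutant replicates 1, 2 and 3 were 13.5, 8.06 and 12.2 CPM. Mutant replicate 2 was not the only sample for which these shares differed. Mutant replicate 1 was that far above both others for 6.32% of the members and 0.55% of all, and below for 3.16% and 2.02%. For mutant replicate 3 the shares were 3.16% and 0.22% above and 5.26% and 0.75% below. For WT replicate 1 they were 2.11% and 1.01% above and 2.11% and 11.6% below. No such gap between 1 sample and both others of its genotype was found in 58 of the 95, and the same share over all transcripts was not computed.

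**Figure D4:**
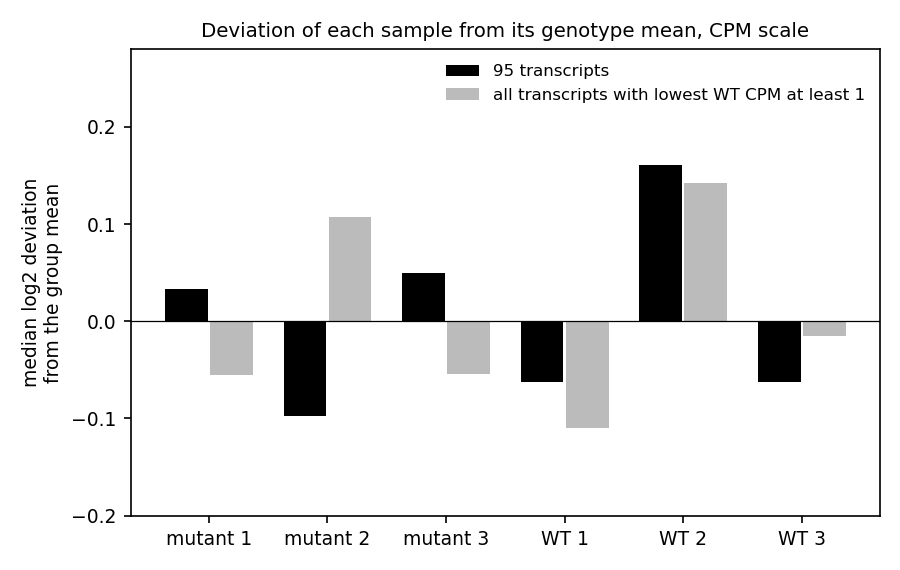
Median log2 deviation of each sample from the mean of its genotype on the CPM scale, for the 95 members (black) and for all 27118 transcripts with at least 1 CPM in every WT sample (grey). In mutant replicate 2 the medians are -0.10 for the members and 0.11 for all transcripts, and in WT replicate 2 they are 0.16 and 0.14. The rule limits the highest mutant value of a member, which bears on the black bars.

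These places depended on the scale. The TMM factors of edgeR, which adjust for the composition of a library, were 0.978, 1.20 and 1.02 for mutant replicates 1, 2 and 3 and 0.833, 1.08 and 0.922 for WT replicates 1, 2 and 3. With library totals alone, as in the rule, the median log2 fold change over all tested transcripts was 0.18, against 0.01 with TMM. On the TMM scale mutant replicate 2 was the lowest mutant for 71 of the 95 members and for 50.9% of all transcripts. TMM-scaled, the members summed to 1038, 734 and 992 CPM in mutant replicates 1, 2 and 3, against 3873, 3222 and 3284 CPM in WT replicates 1, 2 and 3. Their median log2 deviations on this scale were 0.15, -0.28 and 0.11 in mutant replicates 1, 2 and 3. In WT replicates 1, 2 and 3 they were 0.11, -0.04 and -0.03, so the mutant samples lay further apart than on the CPM scale. The rule applied to TMM-scaled values chose 134 transcripts, among them 89 of the 95. Of the other 6 members 5 had a ratio of 4 or more and 1 fell below the floor. The latter was ENSDART00000144036.1, which is thus not a member on the TMM scale.

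Some members stand for the same counts. There were 3 pairs with identical counts in all 6 samples. Within a tolerance of 5% in every sample there were 13 pairs, which held 26 of the 95 transcripts, so that 82 profiles remained when each pair was counted once. The fifth and the sixth member by WT count were 1 such pair. Values of transcripts that share reads are uncertain and are not independent of each other.

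The contrast between the genotypes was also fitted across all transcripts with edgeR's quasi-likelihood test. All 95 members were among the 41974 transcripts that passed the filter on low counts. In this fit 94 of the 95 had a Benjamini-Hochberg adjusted p under 0.05 and were lower in mutants, where 1.22% of all tested transcripts were called lower. Because the members were chosen on the same contrast and the same samples, this count describes the rule and is no support for the reduction. The log2 fold changes of the members ran from -4.24 to -1.40 with a median of -1.94, against a median of 0.01 over all tested transcripts, and their standard errors ran from 0.16 to 0.67. The 1 member that was not called had 1.08, 1.06 and 0.359 CPM in mutants against 2.82, 2.41 and 2.67 CPM in WT (adjusted p = 0.0596 from the edgeR test). Its WT samples were close together and mutant replicate 3 lay far below the other mutants. The fewest members were called with 1 of 2 samples left out, 53 without WT replicate 3 and 57 without mutant replicate 3. Lower calls over all transcripts also fell in these fits, from 513 to 205 without WT replicate 3 and to 232 without mutant replicate 3. The loss was thus not particular to the members. With any other sample left out, 75 to 92 members were called, the fewest of these without mutant replicate 2. Across all fits with 1 sample left out, 48 members kept the call throughout.

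To read the ratio in samples that had no part in the choice, the rule was applied to 4 samples at a time, leaving out the mutant and the WT sample of 1 number. Without the samples numbered 1 it chose 153 transcripts, of which 80 were among the 95. In the samples left out, their median was 1.94 CPM in the mutant and 5.52 CPM in WT. All but 4 of the 153 were lower in the mutant, and 112 (73.2%) were at least 2 times lower, 91 of them by less than 4 times. There were 27839 transcripts with at least 1 CPM in that WT sample. Of those that also had counts in the mutant sample, 30.0% were lower and 2.21% at least 2 times lower. Most transcripts chosen on the other samples were thus reduced here as well, and the median of WT over mutant was 2.71.

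Without the samples numbered 2 the rule chose 152 transcripts, 88 of them among the 95. In the samples left out, 112 (73.7%) were at least 2 times lower in the mutant, of which 52 were 4 times lower or more, and 16 were not lower. The median of WT over mutant was 3.07, with a range from 0.106 to 10.3, so that this pair of samples contained both the larger share of strong reductions and the most exceptions. Without the samples numbered 3 it chose 129 transcripts, 82 of them among the 95. In these samples 128 of the 129 were lower in the mutant and 99 (76.7%) at least 2 times lower, with a median of WT over mutant of 2.58. The share of all transcripts at least 2 times lower, again without those that had no count in the mutant sample, was 3.00% in the pair numbered 2 and 1.87% in the pair numbered 3. The share that was lower by any amount was 38.5% and 40.7% in these pairs. These shares depended on the scale. With TMM-scaled values, 54.0%, 54.0% and 55.2% of all transcripts were lower in the pairs numbered 1, 2 and 3. At least 2 times lower were 3.83%, 4.09% and 2.63% of all, against 77.6%, 68.6% and 73.7% of the transcripts chosen on that scale. The readings for the 3 numbers share samples with each other and rest on 1 mutant and 1 WT sample each, and no test was made of them.

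**Figure D5:**
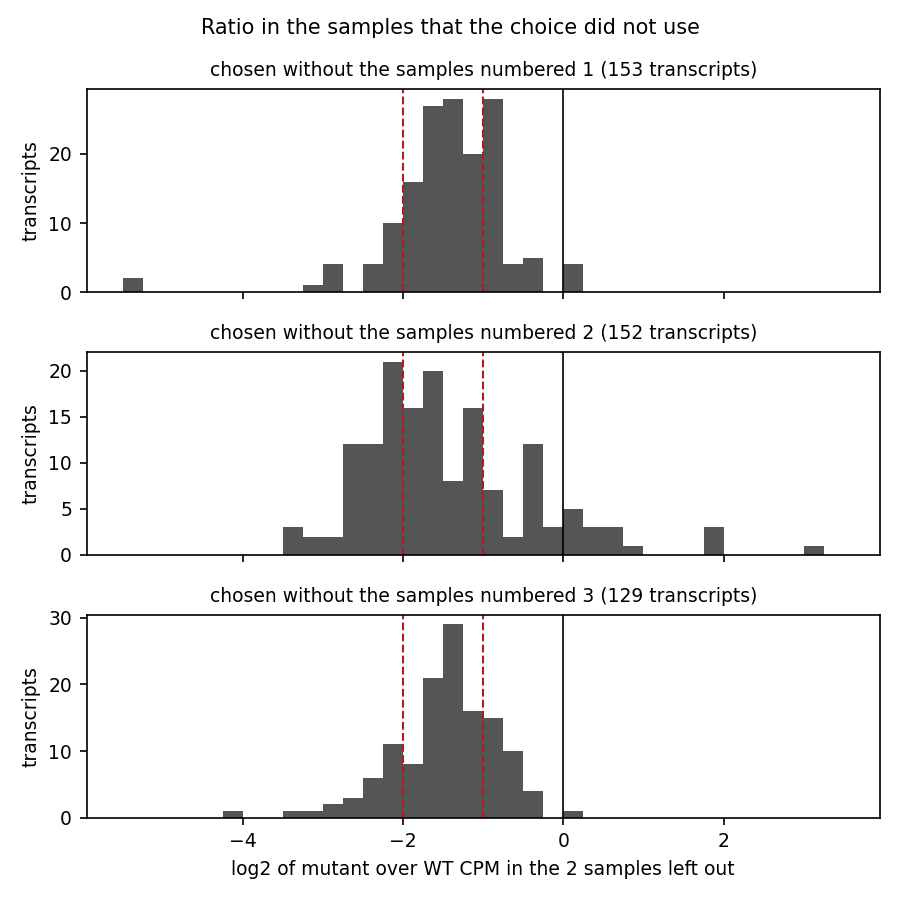
Number of transcripts by log2 of mutant over WT CPM in the 2 samples left out, for transcripts that the rule chose on the other 4 samples. The solid line marks equal levels and the dashed lines reductions of 2 and 4 times. The distributions peak between or near the dashed lines for all 3 numbers, and the pair numbered 2 has 16 transcripts at or to the right of the solid line.

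Beyond the upper limit of the rule lay 111 transcripts that were lower in mutants by 4 times or more in the closest samples. As the limits require, less of these was left in the mutants. The median of the mutant means was 2.45 CPM for the 95 members and 0.211 CPM for the 111 transcripts, whereas the medians of the WT means were 8.78 and 5.30 CPM. Summed, the 111 transcripts had 402.5 CPM in mutants and 3425 CPM in WT on average, a WT sum close to the 3248 CPM of the members. Among the 111 transcripts 48 had a ratio below 8 and 35 a ratio of 32 or more. In the opposite direction, 56 transcripts met the mirrored rule, with the lowest mutant value at least 1 CPM and 2 to 4 times the highest WT value, and 14 exceeded it. These numbers follow from the same choice by measured values and were not tested against each other.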

How the data were processed

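Whole embryos of 3 tp63 mutant and 3 WT pools at 36 hpf were analysed. The authors aligned single-end reads to GRCz10 with STAR and counted them with HTSeq, and the deposited values are raw counts per Ensembl transcript, not normalized. The annotation release and counting options are not given in the sources used here. Lines that name no transcript made up 37.1% to 38.6% of the numbers in a file and were left out. In each file the numbers of reads with low alignment quality and with several alignments were equal. Whether a read could count for several transcripts is not given either. Total counts per sample exceeded the number of reads that the study reports, and some members had identical counts. A read may thus have counted for several transcripts, which was not tested.

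Sample groups and replicate numbers came from the sample labels. At totals of 77133790 to 81976521 counts per sample, counting error alone gave members a median SD of log2 CPM of 0.10 in mutants and 0.055 in WT. The transcripts and the rules for naming them were chosen with earlier results of these data known. Named were the member with the most WT counts and the one with the largest ratio of lowest WT to highest mutant value, and others were described by rank. Lists of marker genes could not be matched.

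In R 4.3.3, edgeR 4.0.16 was used with filterByExpr at default settings, TMM factors and the two-sided quasi-likelihood test, with adjustment over 41974 transcripts. The standard error is the absolute log2 fold change divided by the square root of F. Scripts were tested on simulated data. Alternatives were DESeq2 1.42.0, RLE factors, library totals alone, a minimum of 10 counts per sample or no minimum, a block for the replicate number, each sample or number left out, identical counts counted once, and floors of 0.5 and 5 CPM. Other computations used Python 3.11.15 with numpy 2.4.6 and pandas 2.3.3.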

Additional observations from a re-analysis of the deposited data

How the results depend on the processing

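The rule chose 95 transcripts, and 58 with a floor of 5 CPM. Leaving out a sample or a replicate number gave from 99 to 153. The median log2 fold change of the members, -1.94, was -1.77 with library totals alone and from -2.02 to -1.82 with a sample left out. Its sign is fixed by the rule. The number of members called lower, 94, ran from 53 to 92 with 1 sample left out. The 1 member that was not called passed the threshold with the replicate number as a block, with DESeq2 and with no filter on low counts. ENSDART00000144036.1 was not called without tp63 mutant replicate 3 (edgeR adjusted p = 0.0550) or without WT replicate 3 (adjusted p = 0.0616), and its other adjusted p-values ran from 2.67e-07 to 0.0418.

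Over all transcripts, 513 were lower and 114 higher. The lower ones numbered 1038 with DESeq2, 322 with library totals alone, 296 with a minimum of 10 counts per sample and 205 to 560 with a sample left out. The higher ones numbered 402 with DESeq2, 59 with that minimum and 19 to 179 with a sample left out. Why these counts moved was not tested.

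With a block for the replicate number, the members had a median log2 fold change of -1.94, and over all transcripts 1235 were lower and 879 higher. Deviations of same-numbered samples from their group means correlated across all tested transcripts at 0.63, 0.51 and -0.11 for numbers 1, 2 and 3. They were taken on log2 of TMM-scaled CPM plus 0.5. Deviations of the 3 samples of a genotype from their mean depend on each other, so the correlations are not separate evidence. Mutant replicate 1 with WT replicate 2 gave -0.55, and mutant replicate 2 with WT replicate 1 gave -0.61. Mutant replicate 3 correlated more with WT replicate 1 (0.20) than with its own number. Over all tested transcripts, samples numbered 1 and 2 thus deviated alike in both genotypes, and those numbered 3 did not. The members did not show this pattern, but the rule limits their values within each genotype. How much of this difference follows from the rule was not tested. Over the 95 members the same-numbered correlations were 0.06, 0.03 and 0.03 for numbers 1, 2 and 3, and those of other pairs ran from -0.35 to 0.34. The labels give only a number, the main fit used no block, and what same-numbered samples share was not tested.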
